A study of Mus musculus with 6 samples.

Results

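Immunity-related GTPases (IRGs) are interferon-induced GTP-binding proteins that defend mouse cells against bacteria and protozoa living inside membrane-bound vacuoles. Effector IRGs, called GKS proteins after the lysine in their nucleotide-binding loop, assemble on the vacuole membrane and break it. Regulatory IRGs, called GMS proteins because a methionine takes the place of that lysine, sit on the cell's own membranes and hold the effectors in their inactive state there. The data described here are the transcripts of 7 IRG genes in kidney fibroblasts. Igtp, Irgm1 and Irgm2 encode regulators, and Iigp1, Ifi47, Tgtp1 and Tgtp2 encode effectors. The members were the rows of the count table whose gene name was one of these 7, and all 7 were found among the 34745 rows. All 7 also passed the filter on low counts, among 13088 genes tested.

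To investigate what Th17 cells, the helper T cells that make interleukin-17, do to the transcripts of fibroblasts, RNA was sequenced from WT renal fibroblasts grown out of digested mouse kidney. The first group (3 libraries) was cultured alone. The other group (3 libraries) shared its medium for 24 h with induced Th17 cells, which sat in a transwell insert with 0.4 μm pores above the fibroblasts after these had adhered for 6 h. Only the fibroblasts below the insert were collected. The Th17 cells had been induced from CD4+ T cells with antibodies to CD3 and CD28, with IL-1β, IL-6 and IL-23, and with an antibody that blocks interferon-γ, the main known inducer of IRG genes. Whether the wells without Th17 cells held an empty insert, and whether a group's 3 libraries represent separate cultures or animals, was not stated. The SDs, SEs and p-values below therefore measure the spread between these libraries, which may be technical. The study used Balb/c mice, but the sources used here do not tie a strain, age or sex to the fibroblasts of these libraries.

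Libraries held between 12050529 and 13209581 counts in all, and 3 counts corresponded to between 0.223 and 0.254 CPM, counts scaled to equal library size by TMM factors. Libraries of the same group differed by more than sampling noise (chi-square per gene at least 6.38), so none was a second deposit of the same counts, which does not show that they came from separate cultures. Fibroblast transcripts were abundant in all 6 libraries, with a summed level of 10 marker genes between 35731 and 37596 CPM alone and between 15732 and 17659 CPM with Th17 cells. Of these markers 4 were lower and 1 was higher by the threshold used below (7.78% and 3.87% of all genes tested), with Col3a1 (log2 fold change −2.18) and Col1a2 (−1.43) at the low end and Dcn (1.5) and Postn (−0.04, not past the threshold) at the high end. The part of these shifts in the results below was not tested. Markers of other cells were present at low levels and are given after the IRG results.

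The classes can be read in the genes themselves. The codons of the nucleotide-binding loop are shown because they separate regulators from effectors. A reading of the longest open reading frame of the reference transcripts (GENCODE M21, build GRCm38) found the loop a single time in each of the 7 members. It began at codon 91 in Igtp, 83 in Irgm1 and Irgm2, 81 in Ifi47, and 63 in Tgtp1 and Tgtp2. In the lines below the capitals mark the codon that is ATG (methionine) in the regulators and AAG (lysine) in the effectors.
Igtp: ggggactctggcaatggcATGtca
Irgm1: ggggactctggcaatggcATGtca
Irgm2: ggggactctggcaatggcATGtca
Ifi47: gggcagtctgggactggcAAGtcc
Tgtp1: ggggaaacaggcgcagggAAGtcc
Tgtp2: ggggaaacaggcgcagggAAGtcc
The 3 regulators shared the same 24 bases, as did Tgtp1 and Tgtp2, while Ifi47 differed from both sets.

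Promoter stretches are shown because interferon acts on IRG genes through short DNA elements that STAT and IRF proteins bind. RefSeq windows from 250 bases before to 50 bases after the gene start (build GRCm38.p6) were found for 6 members, all on chromosome 11. The windows were searched on both strands for the IRF-binding pattern GAAANNGAAA and for the STAT-binding pattern TTCNNNGAA, which do not overlap in the lines below. Capitals mark the matches. The stretches are chr11:58199499-58199548 (plus strand) for Igtp, chr11:58214890-58214939 (plus) for Irgm2, chr11:48992297-48992346 (minus) for Tgtp1, chr11:49064256-49064305 (minus) for Tgtp2 and chr11:48871413-48871462 (minus) for Irgm1.
Igtp: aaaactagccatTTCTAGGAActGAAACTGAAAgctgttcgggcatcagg
Irgm2: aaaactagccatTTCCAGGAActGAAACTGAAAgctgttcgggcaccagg
Tgtp1: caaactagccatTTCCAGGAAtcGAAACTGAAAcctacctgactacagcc
Tgtp2: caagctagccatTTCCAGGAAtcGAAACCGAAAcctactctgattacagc
Irgm1: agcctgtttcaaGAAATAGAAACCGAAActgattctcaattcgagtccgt
In Igtp, Irgm2, Tgtp1 and Tgtp2 the STAT pattern stood 2 bases before the IRF pattern, at 45, 75, 88 and 81 bases upstream of the start. The Irgm1 window held 2 overlapping IRF patterns and no STAT pattern.

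The IRF pattern was found in 5 of the 6 windows, against 3.43% of all 32817 promoter windows of the same length, and the STAT pattern in 4, against 8.29%. Both patterns together were found in 4 members, against 0.451% of all windows. The printed stretches of Igtp and Irgm2 are much alike, as are those of Tgtp1 and Tgtp2, so these windows are not independent of each other. The arrangement with 2 bases between them, which was looked for after it had been seen in these genes, occurred in 5 windows (0.0152%). These belonged to the 4 members above and to Gm12185, a further IRG gene of the same chromosome. The window of Ifi47, chr11:49076337-49076636 on the plus strand, held neither pattern and is printed whole for that reason.
Ifi47: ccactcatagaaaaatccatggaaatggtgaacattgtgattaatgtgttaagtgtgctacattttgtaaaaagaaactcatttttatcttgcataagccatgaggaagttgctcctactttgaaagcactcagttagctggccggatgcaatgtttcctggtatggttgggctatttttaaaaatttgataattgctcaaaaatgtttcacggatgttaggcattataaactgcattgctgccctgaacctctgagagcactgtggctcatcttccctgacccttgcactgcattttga
A match of letters is a description and not a binding site, and the absence of a match says only that these letters are not in this window.

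All 7 IRG transcripts were lower in fibroblasts cocultured with Th17 cells. The decrease ranged from 2.11-fold for Irgm1 to 14.8-fold for Iigp1, and the summed length-scaled level of the 7 genes (FPKM, fragments scaled to gene length and library total) fell 4.48-fold, from 462.5 ± 3.84 to 103.2 ± 4.87 (SD, n = 3 each). Each member was past the threshold, which asked for more than a 2-fold difference together with an adjusted p under 0.05 in edgeR's quasi-likelihood test (Benjamini-Hochberg over all genes tested). By the same rule 7.78% of all genes tested were lower and 3.87% were higher, 11.6% in all. The libraries of the groups did not overlap for any of the 7, where 26.1% of all genes tested were lower without overlap. The median log2 fold change was −2.46 for the members and 0.0038 for all genes tested.

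**Figure D1:**
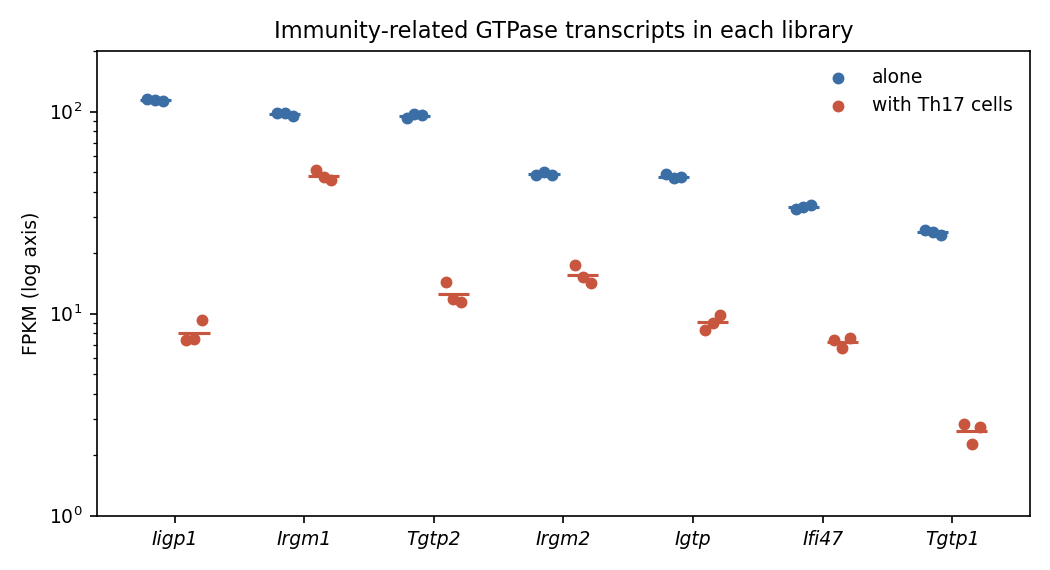
Level of each IRG gene in each library, as FPKM on a log axis, with 3 points per group (blue, alone; red, with Th17 cells) and a horizontal line at the mean. In every gene the 3 red points lie below the 3 blue points, from a small step for Irgm1 (97.1 to 48.1 on average) to a large one for Iigp1 (114.2 to 8.06).

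The 3 lowest log2 fold changes were those of effectors. Iigp1 (ENSMUSG00000054072, GRCm38 chromosome 18, 60376029 to 60392627, plus strand) encodes Irga6, a well-studied effector that loads onto the vacuole of Toxoplasma gondii. Its level was 370.3, 365.0 and 358.5 CPM in fibroblasts alone and 22.6, 23.0 and 28.2 CPM with Th17 cells. The groups lay far apart, and the third cocultured library was the highest of its group. The log2 fold change was −3.89 (SE 0.093, adjusted p = 2.08e-08 by edgeR), so that 6.75% of the level without Th17 cells remained, and the gene ranked 93 from the lowest of all genes tested.

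Tgtp1 (ENSMUSG00000078922, chromosome 11, 48985327 to 48994172, minus strand) and Tgtp2 (ENSMUSG00000078921, chromosome 11, 49057194 to 49064206, minus strand) are near-identical copies that encode Irgb6, an effector known to load early onto the vacuole. Tgtp1 stood at 101.3, 99.4 and 95.6 CPM alone and at 10.6, 8.49 and 10.2 CPM with Th17 cells, a log2 fold change of −3.34 (SE 0.097, adjusted p = 4.06e-08 by edgeR). Tgtp2 stood at 303.4, 318.3 and 310.4 CPM alone and at 44.7, 37.1 and 35.2 CPM with Th17 cells, a log2 fold change of −2.99 (SE 0.094, adjusted p = 4.75e-08 by edgeR). Both copies were thus lower in every cocultured library, with the first cocultured library the highest for each. Their coding sequences differed at 4 of 1248 bases, and 87.7% of all stretches of 75 bases in the Tgtp1 transcripts also occurred in another gene, mostly Tgtp2, so the split of reads between the copies is uncertain. Summed into 1 feature, the copies held 5210, 5283 and 4798 counts alone and 742, 580 and 596 counts with Th17 cells, with a log2 fold change of −3.07 (SE 0.087, adjusted p = 3.84e-08 by edgeR). Their promoter windows were less alike than their coding sequences, with 67% of 315 aligned positions identical. The Tgtp1 window lies inside the row counted for that gene and not at its beginning.

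Ifi47 (ENSMUSG00000078920, chromosome 11, 49076587 to 49096974, plus strand) encodes Irgd, an effector that also reaches the vacuole. Its libraries stood at 139.8, 144.0 and 146.6 CPM alone and at 30.3, 27.7 and 30.5 CPM with Th17 cells. Ifi47 showed the smallest decrease of the 4 effectors, with tight values in each group. The log2 fold change was −2.28 (SE 0.071, adjusted p = 4.57e-08 by edgeR), a 4.86-fold decrease. Its exons share 111 bases with Olfr56 on the same strand and 106 bases with Gm12188 on the opposite strand, and whether counting used strand was not given.

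The regulators were lower by 2.11- to 5.49-fold. Igtp (ENSMUSG00000078853, chromosome 11, 58199556 to 58207591, plus strand) encodes Irgm3, a protein of the endoplasmic reticulum that is required for resistance to Toxoplasma. Its level was 257.0, 245.0 and 246.9 CPM alone and 41.7, 45.5 and 49.3 CPM with Th17 cells. The groups were well separated, and the log2 fold change was −2.46 (SE 0.076, adjusted p = 4.57e-08 by edgeR). The 95% intervals of Igtp (−2.60 to −2.31) and Ifi47 (−2.42 to −2.14) overlapped, so these genes were not told apart.

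Irgm2 (ENSMUSG00000069874, chromosome 11, 58199618 to 58222779, plus strand) encodes a regulator found at the Golgi. Its level was 346.2, 354.9 and 341.8 CPM alone and 117.7, 103.7 and 96.1 CPM with Th17 cells, with no overlap. The log2 fold change was −1.72 (SE 0.080, adjusted p = 4.09e-07 by edgeR), a 3.29-fold decrease. The row of Irgm2 begins inside that of Igtp and runs past its end. Their exons share 162 bases on the same strand, so some reads could be assigned to either gene. The RefSeq start used for the Irgm2 promoter window lies within this row and not at its beginning. The same holds for the starts used for Tgtp1 and Irgm1, each within the row of its own gene. Stretches of 75 bases shared with other genes made up 8.37% of Igtp and 4.28% of Irgm2.

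Irgm1 (ENSMUSG00000046879, chromosome 11, 48861968 to 48871683, minus strand) encodes a regulator of the endomembranes and lysosomes that mice need to survive many intracellular infections. Its level was 733.4, 733.9 and 709.7 CPM alone and 365.5, 340.5 and 326.8 CPM with Th17 cells. Irgm1 showed the smallest decrease of the 7, with groups that nonetheless did not overlap. The log2 fold change was −1.08 (SE 0.060, adjusted p = 1.24e-06 by edgeR), a 2.11-fold decrease whose 95% interval, −1.19 to −0.96, reaches past the fold change limit of the threshold. With limma on log2(FPKM + 1) the value was −0.999 (adjusted p = 2.08e-05), just short of that limit. Irgm1 shared no stretch of 75 bases with another gene.

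**Figure D2:**
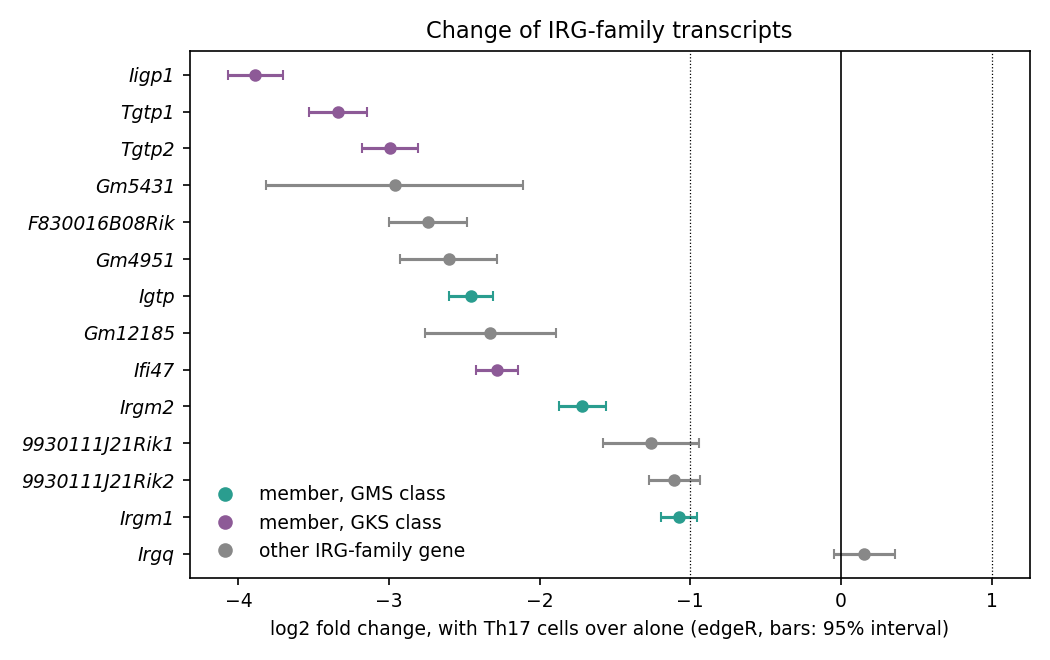
Log2 fold change (with Th17 cells over alone) of the 7 members, coloured by class, and of the other IRG-family genes tested (grey), with bars for the 95% interval and dotted lines at the fold change limit of 2 in either direction. The members run from −3.89 for Iigp1 to −1.08 for Irgm1, the 3 lowest are effectors, and Irgq at 0.16 is the only gene to the right of zero.

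The balance between the genes shifted with the decrease. By the deposited FPKM, Iigp1 was highest in fibroblasts alone (112.7 to 115.6 FPKM), followed by Irgm1 (95.3 to 98.1) and Tgtp2 (93.0 to 97.8), whose ranges overlapped. Next came Irgm2 (48.4 to 50.0) and Igtp (46.7 to 48.9), which also overlapped, then Ifi47 (32.8 to 34.6) and Tgtp1 (24.6 to 25.9). With Th17 cells Irgm1 was highest (46.0 to 51.1 FPKM), ahead of Irgm2 (14.3 to 17.3) and Tgtp2 (11.4 to 14.3), which overlapped. Igtp (8.33 to 9.89 FPKM), Iigp1 (7.41 to 9.28) and Ifi47 (6.75 to 7.54) overlapped each with the next, and Tgtp1 (2.26 to 2.83) stayed the lowest. In FPKM Iigp1 thus moved from the top of the order to the lower part of it. This order depends on the gene lengths behind the FPKM, which were not listed but show where CPM and FPKM are compared. In fibroblasts alone Irgm1 had means of 725.7 CPM and 97.1 FPKM, and Iigp1 had 364.6 CPM and 114.2 FPKM. The FPKM thus used a longer length for Irgm1 than for Iigp1. The reference transcript of Irgm1 is the shorter, with 2259 bases against 3121. By these transcript lengths Irgm1 would already stand above Iigp1 in fibroblasts alone, so their FPKM order there rests on the lengths used.

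As a share of the summed FPKM of the 7 members, Irgm1 went from 20.99 ± 0.189% to 46.6 ± 0.988% (SD, n = 3 each) and Iigp1 from 24.7 ± 0.263% to 7.83 ± 1.22%. The ratio of Irgm1 to Iigp1 in FPKM was 0.846, 0.859 and 0.846 alone and 6.90, 6.32 and 4.96 with Th17 cells. The levels of the shares and of this ratio rest on the same FPKM lengths, which set Irgm1 lower against Iigp1 than the reference transcripts would. Irgm2 gained 4.48 percentage points, while Tgtp2, Tgtp1 and Igtp had shares lower by 8.55, 2.95 and 1.48 points. For these 6 members the shares did not overlap between groups (two-sided exact permutation p = 0.1 each, Benjamini-Hochberg adjusted p = 0.117 over 7 members), which is the smallest p that 3 libraries against 3 allow. The share of Ifi47 was 7.29 ± 0.231% alone and 7.02 ± 0.386% with Th17 cells, and the groups overlapped (exact permutation p = 0.3, adjusted p = 0.3).

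By class, the summed FPKM of the 3 regulators was 195.4, 194.9 and 190.9 alone and 76.8, 71.5 and 70.1 with Th17 cells, a 2.66-fold decrease. The summed FPKM of the 4 effectors was 267.3, 271.3 and 267.5 alone and 32.0, 28.3 and 30.9 with Th17 cells, an 8.83-fold decrease. In FPKM the effectors therefore held the larger part in each library alone and the smaller part in each library with Th17 cells. In counts, which are not scaled to length, the regulators held the larger part in every library of both groups. Which class was ahead in fibroblasts alone thus depends on the length scaling. The regulators' share of the summed FPKM was 41.9 ± 0.306% alone and 70.5 ± 1.12% with Th17 cells (SD, n = 3 each, exact permutation p = 0.1). This grouping was tested after the values had been seen. It does not order every gene, since Igtp, a regulator, and Ifi47, an effector, had similar log2 fold changes (−2.46 and −2.28).

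**Figure D3:**
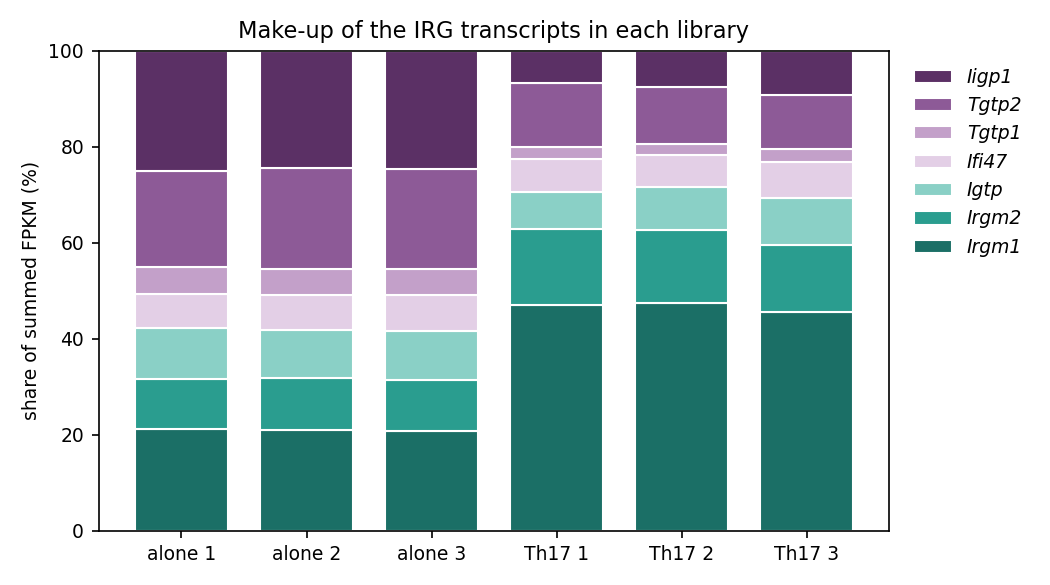
Make-up of the IRG transcripts in each library, with each bar split into the share of the summed FPKM (%) held by each of the 7 genes (green shades, regulators; purple shades, effectors). The green part covers 41.6 to 42.2% of the bars alone and 69.4 to 71.6% of the bars with Th17 cells, and most of the gain is Irgm1.

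Further genes of the IRG family showed the same direction. Of 9 listed, 7 had enough counts for the test, and 6 of these were lower past the threshold and none was higher (background 7.78% and 3.87%). No row of the count table carried the symbol Gm12250, which RefSeq also lists as Irgb10, so this gene could not be assessed. Irgc1, a testis gene of the family, had 0 counts in all 6 libraries. Gm4951 had 831, 704 and 754 counts alone and 162, 92 and 143 with Th17 cells (log2 fold change −2.60). F830016B08Rik, which RefSeq also lists as Ifgga4, had 381, 328 and 302 counts alone and 59, 45 and 55 with Th17 cells (−2.74). Every cocultured library was below every library alone for both.

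On chromosome 11, Gm12185 (Irgb2b1) had a log2 fold change of −2.33 and Gm5431 (Irgb9b8) of −2.96. Gm5431 rested on few reads, with 49, 51 and 22 counts alone and 3, 6 and 7 with Th17 cells. The tandem genes 9930111J21Rik1 (−1.26, SE 0.163) and 9930111J21Rik2 (Irgb5, −1.11, SE 0.087) were nearer to Irgm1 than to the other members. Irgq, a quite distant relative outside the interferon-induced clusters, stood at 57.1 ± 1.90 CPM alone and 63.6 ± 8.63 CPM with Th17 cells (SD, n = 3 each; log2 fold change 0.16, adjusted p = 0.267 by edgeR), with overlapping groups. How far reads of these further genes could be split with a relative was not tested.

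The members lie in 3 clusters of the genome, and genes around them were compared after the values had been seen. Within 200 kb of a member lay 36 rows of genes outside the lists, of which 20 were tested. Of these 4 were lower, none was higher (background 7.78% and 3.87%), 16 were neither, and the median log2 fold change was −0.11. Of the 4 genes, Gm4841 (−3.87) and BC023105 (−3.75), which RefSeq lists as a pseudogene, lie beside Iigp1. RefSeq also names Gm4841 Ifgga3, in a series with Iigp1 (Ifgga1). By name Gm4841 thus belongs with the IRG family, although it was not on the lists and is counted here as a neighbour. Olfr56 (−3.01) is an olfactory receptor gene whose row spans Tgtp1, Tgtp2 and Ifi47 and which shares exon bases with Ifi47, and Psme2b (−1.05) is a proteasome activator gene. Beside Igtp and Irgm2, the nearest genes tested on either side, Mrpl22 (0.06) and Zfp692 (0.03), were not past the threshold.

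**Figure D4:**
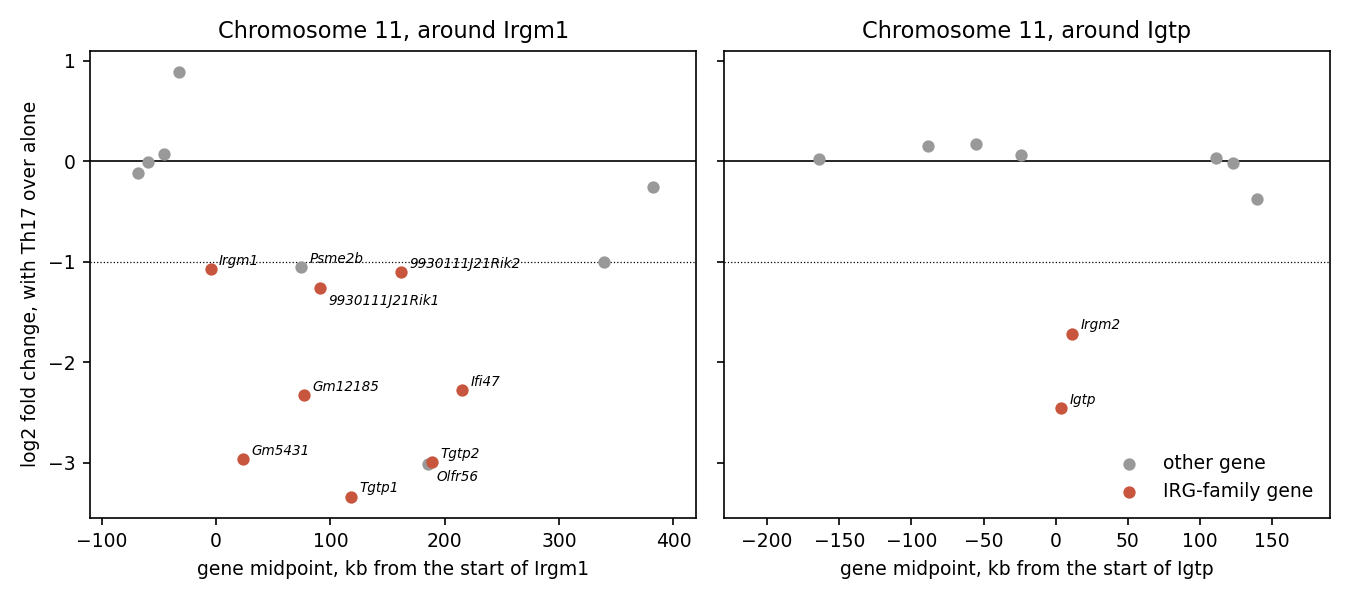
Log2 fold change (with Th17 cells over alone) of the genes tested around Irgm1 (left) and Igtp (right) on chromosome 11, against the distance of each gene's midpoint from the start of that member in kb, with IRG-family genes in red, other genes in grey and a dotted line at a 2-fold decrease. On the right, Igtp (−2.46) and Irgm2 (−1.72) lie below grey points that stay close to zero, and on the left Olfr56 (−3.01) lies among the red points.

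IRG genes are switched on by interferons through receptors, JAK kinases and STAT and IRF transcription factors. Ifng, which encodes interferon-γ, had 0 counts in all 6 libraries, which allows a level of up to 0.254 CPM in the shallowest of them. Ifnb1, which encodes interferon-β, had 4, 6 and 4 counts alone and 0, 4 and 3 with Th17 cells and was too low to be tested. Of the 4 receptor genes tested none passed the threshold. Ifngr1 was at 43.0 ± 3.63 and 41.3 ± 1.72 CPM (SD, n = 3 each; log2 fold change −0.06, adjusted p = 0.622 by edgeR). Ifngr2, the second chain of the interferon-γ receptor, stood at 101.5, 107.6 and 102.1 CPM alone and 203.5, 203.5 and 209.9 CPM with Th17 cells, without overlap. Its log2 fold change of 0.99 (SE 0.058, adjusted p = 1.86e-06 by edgeR) was just short of the fold change limit, and with library size as the only scaling it passed.

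Of 15 genes of interferon signalling tested, 6 were lower and 1 was higher past the threshold, with a median log2 fold change of −0.34 (background 7.78% and 3.87%). Irf1, an interferon-γ-induced factor that acts at many promoters with IRF patterns, had 42.8 ± 1.34 CPM alone and 14.7 ± 2.65 CPM with Th17 cells (SD, n = 3 each; −1.54, SE 0.126, adjusted p = 1.60e-05 by edgeR). Also lower were Irf7 (−1.92), the class I transactivator Nlrc5 (−1.73), the receptor inhibitor Usp18 (−1.63) and Stat2 (−1.30). Socs3, an inhibitor of cytokine receptor signalling, was higher, at 33.7, 36.3 and 35.2 CPM alone and 177.7, 191.4 and 238.6 CPM with Th17 cells (2.53, SE 0.113, adjusted p = 3.18e-07 by edgeR).

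Guanylate-binding proteins (GBPs) are larger interferon-induced GTPases that act with IRGs at the vacuole. All 11 Gbp genes tested were lower past the threshold (background 7.78%), with a median log2 fold change of −2.71. Gbp11 (−3.88) and Gbp4 (−3.87) were at the low end of this list and Gbp7 (−2.35) and Gbp10 (−2.24) at the high end. The autophagy conjugation system and vacuole adaptors, which place IRGs and GBPs on the target membrane, were listed as well. Of 16 genes tested, 1 was lower and 1 was higher (background 7.78% and 3.87%), and the median was 0.14. The ubiquitin ligase gene Trim21 was lower (−2.003) and the conjugation enzyme gene Atg7 was higher (1.16), while Atg3 (−0.21) and the adaptor gene Sqstm1 (0.55) were not past the threshold.

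Genes known to respond mostly to type I interferon were also lower, 9 of 9 tested (background 7.78%), with a median log2 fold change of −2.96. They ran from Mx1 (−5.48) and Rsad2 (−4.00) to Isg15 (−1.70) and Ifit1 (−1.69). Of 7 listed genes of the class II pathway, known to respond to interferon-γ in many cells, 3 could be tested and 1 was lower (background 7.78%). This was Cd74, with 13, 11 and 11 counts alone and 1, 2 and 0 with Th17 cells. H2-Ab1 (−0.36) and H2-DMa (0.95) were not past the threshold, and Ciita, the regulator of the pathway, had 0 counts in all libraries. These lists were chosen with earlier results of the data known, so their counts describe the data and set no list apart.

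**Figure D5:**
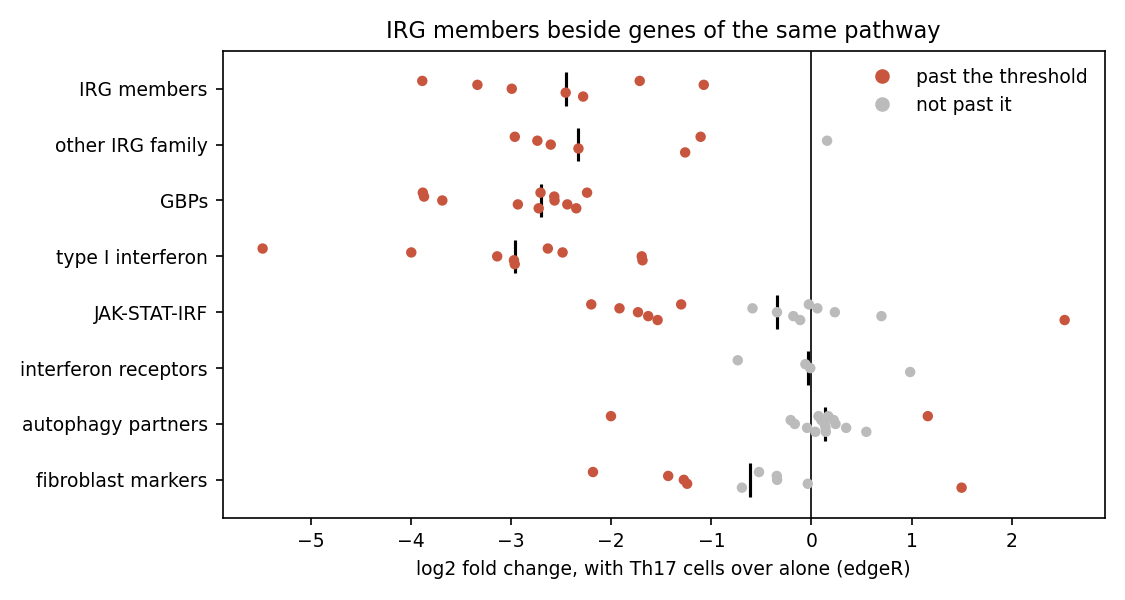
Log2 fold change (with Th17 cells over alone) of the members and of the genes tested in 7 other lists, with 1 point per gene, red where it is past the threshold and grey where it is not, and a black bar at each list's median. The IRG (−2.46), GBP (−2.71) and type I interferon (−2.96) medians lie well to the left of zero, the autophagy partners (0.14) near it.

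The genes with profiles most like that of the members were found by the root mean square distance of log2 CPM over the 6 libraries from the members' mean profile, among 9136 genes with at least 10 CPM on average. They were Cd274 (distance 0.071), Herc6 (0.080), Mx2 (0.086), Gbp2 (0.087) and F830016B08Rik (0.099). Cd274, which encodes the inhibitory ligand PD-L1, stood at 92.4, 102.6 and 97.9 CPM alone and 17.1, 17.5 and 16.8 CPM with Th17 cells, a log2 fold change of −2.51. Among the members themselves, Igtp was nearest to the mean profile (0.10) and Irgm1 farthest from it (1.02), followed by Iigp1 (0.96), which lie on opposite sides of it.

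Markers of other cells were lower in sum as well. Of 20 macrophage markers 9 were tested, and 7 of them were lower and none was higher (background 7.78% and 3.87%), with a summed level of 70.8 to 77.5 CPM over all 20 alone and 20.8 to 22.2 CPM with Th17 cells. Adgre1 and Ptprc were lowest among them, at 4.63 ± 0.900 and 0.989 ± 0.0857 CPM alone and 0 counts in each cocultured library, while Cd68 (−0.93) and Cd14 (0.00) were highest and not past the threshold. In the cocultured libraries 8 of the 20, including Tyrobp, Fcer1g and the C1q genes, were at 0 counts, and none was at 0 in all 6 libraries. Macrophages also express IRG genes, and the part of these cells in the decrease was not tested. The 7 members together held 2210 to 2260 CPM alone and 576 to 633 CPM with Th17 cells.

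Of the T cell, endothelial and epithelial markers only 2 of 18, 2 of 6 and 2 of 6 had enough counts for the test. In each list 1 of these was lower and 0 were higher (background 7.78% and 3.87%). Markers of T cells summed to 8.0 to 9.49 CPM alone and 5.35 to 6.18 CPM with Th17 cells. Lck was lower (−1.04), Trac (0.03) was not past the threshold, and 6 of 18 were at 0 counts in all libraries. The 6 endothelial markers had a summed level of 6.80 to 8.04 CPM alone and 2.06 to 3.07 CPM with Th17 cells. Kdr was lower (−5.34), Pecam1 (0.10) was not, and Emcn was at 0 counts throughout. Kdr, at 5.55 ± 0.438 CPM, made up most of the endothelial sum in fibroblasts alone. Epithelial markers summed to 3.89 to 5.69 CPM alone and 1.49 to 1.68 CPM with Th17 cells, with Lrp2 lower (−2.36) and Krt18 (−0.40) not past the threshold. The part of these cells was not tested either. In such bulk samples, fewer cells that express IRG genes and less IRG RNA in each cell cannot be told apart.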

How the data were processed

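The study sequenced RNA of primary renal fibroblasts cultured alone or with Th17 cells (VAHTS Universal V6 kit, Illumina NovaSeq). Reads were filtered by the authors (Seqtk) and aligned by HISAT2 2.0.4 (build mm10 in the submitters' processing notes). The authors counted fragments with StringTie 1.3.3b and deposited raw counts per gene, together with FPKM values scaled to gene length and library total. Use of strand and the handling of reads that fit several genes were not stated.

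Groups came from sample titles and columns from sample descriptions. The members and gene lists were chosen with earlier results of these data known. Counts were tested with edgeR 4.0.16 in R 4.3.3: filterByExpr (minimum count 10), TMM scaling, the quasi-likelihood test and Benjamini-Hochberg adjustment over 13088 genes. The threshold was an adjusted p below 0.05 with a fold change above 2. SE is the log2 fold change divided by the square root of F in absolute size, and 95% intervals are normal intervals from that SE. The biological coefficient of variation was 11.6%. CPM used TMM library sizes. Levels of different genes were compared in FPKM, apart from a look at counts by class and at Irgm1 against Iigp1 by reference transcript length. Intervals and floors cover counting error or the spread between libraries only, since without molecular identifiers fragments are not separate molecules.

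Named genes were the members, every detected IRG-family gene, interferon receptor and signalling genes past the threshold together with Ifng, Ifnb1, Ifngr1, Ifngr2 and Irf1, the 2 highest and 2 lowest log2 fold changes of each other list, and the 5 nearest profiles. A further gene that this rule names is not reported here. Neighbouring genes, promoter patterns and the split by class were chosen after values had been seen. Sequences come from GENCODE M21 transcripts and RefSeq promoter windows, the latter matched by symbol (6 of 7 members, Iigp1 missing). Identities are from global pairwise alignments (Biopython 1.88).

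Alternatives were relative log expression or upper quartile factors, library size only, no filter, at least 10 counts in every library, DESeq2 1.42.0, limma 3.58.1 on log2(FPKM + 1), a replicate block, Tgtp1 and Tgtp2 summed, no fold change limit, and leaving out each library. Tested on simulated counts for 13088 genes with 200 changed, edgeR recovered 99.5% of the changed genes and called 2 others, DESeq2 98.5% and 0 others, limma 95.5% and 0 others. The simulation gave all genes the same dispersion and planted only changes past the fold change limit, and limma was run there on log2(CPM + 1). Its rates therefore do not cover changes near that limit.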

Additional observations from a re-analysis of the deposited data

How the results depend on the processing

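All 7 members kept their direction under every alternative run. Across them the log2 fold change was −2.51 to −2.27 for Igtp, −1.80 to −1.60 for Irgm2, −3.99 to −3.67 for Iigp1, −2.30 to −2.07 for Ifi47, −3.40 to −2.87 for Tgtp1, −3.10 to −2.84 for Tgtp2 and −1.12 to −0.999 for Irgm1. The exception among calls was Irgm1 with limma on log2(FPKM + 1), at −0.999, short of the fold change limit; the same alternative moved the members' median to −2.27 and the count over all genes from 1524 to 625. When the fold change limit was dropped, 4856 of the 13088 genes tested passed, both directions together. The lists then held 1 receptor gene lower and 1 higher of 4 tested, and 8 signalling genes lower and 2 higher of 15. They also held 4 autophagy partners higher of 16, and 2 class II genes lower and 1 higher of 3. Of the markers, 8 of 9 macrophage and 8 of 10 fibroblast genes were lower. The share of all genes in each direction was not computed for this rule, so these counts set no list apart. Library size as the only scaling moved the median of all genes to 0.067 and gave 1500 genes past the threshold, both directions together. With it 1 receptor gene and 1 class II gene were higher and 0 T cell markers were lower. Counts in place of FPKM gave the regulators a gain in share of 23.8 percentage points in place of 28.6 (28.1 to 29.2 when each library was left out), an alternative chosen after seeing the data. In counts the regulators held the larger part in both groups, so the change of the leading class holds for FPKM and not for counts. Libraries with the same number did not deviate together (r between −0.0085 and 0.019), and those with different numbers gave r between −0.027 and 0.035. The numbers thus showed no pairing, but this check cannot tell whether wells of the same number were set up together. A replicate block left all 7 members past the threshold and gave 1495 genes in all.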
